A study of Mus musculus with 12 samples.

Results

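The well-counted long intergenic non-coding RNAs (lincRNAs) of mouse lung endothelial-enriched cells are described here. A gene was a member if it carried the lincRNA gene type in the deposited tables and its raw read count averaged at least 100 over the 6 libraries of at least 1 of the 4 deposited comparison tables. This gave 87 lincRNAs, of 451 lincRNAs and 9338 genes of any type that appear in the tables. Each table lists only genes with an unadjusted p under 0.05 in the submitters' own test, so the members were chosen by their counts and by that p, and the 4 comparisons below are descriptions of the members, not tests of them. Just inside the count minimum lay 1700096K18Rik, at a mean of 101.5 counts, and Gm10605, at 101.7 counts, and just outside it lay 2900076A07Rik, at 98 counts, and Gm26799, at 97.3 counts.

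The libraries came from CD31+ cells of the lungs of 12 male mice on a C57Bl/6J background, 3 per group, killed at 30 weeks of age. Every mouse carried floxed Tet2 alleles (TET2fl/fl) and was given tamoxifen at 40 mg/kg on 3 days. The WT mice had no Cre and the TET2 KO mice carried Cdh5-CreERT2, and each genotype was kept for 20 weeks on chow with 13% of its energy from fat or on a high-fat diet (HFD) with 60%, which gives the groups WT chow, TET2 KO chow, WT HFD and TET2 KO HFD. Cdh5 drives the recombinase in endothelial cells only, so other cells that remain after CD31 selection keep Tet2, and a Cre-positive mouse with wild-type Tet2 was not among the groups. Tet2 itself was listed only in the comparison of the diets in WT mice, at 4.73, 5.18 and 5.15 FPKM (fragments per kilobase of transcript, scaled to the library's mapped reads) on chow and 6.07, 6.32 and 6.71 FPKM on HFD, so its loss could not be checked in the TET2 KO libraries.

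LincRNAs are transcribed, spliced and mostly polyadenylated like messenger RNAs but are not annotated as coding for a protein. Some act inside the nucleus, as Malat1 does in the speckles that hold splicing factors, some carry microRNAs or small nucleolar RNAs in their bodies, and many are transcribed from the same regulatory regions as a coding gene nearby. TET2 oxidises methylated cytosine in CpG dinucleotides, the first step of active DNA demethylation, and CpG-rich promoters are among the sequences where methylation bears on transcription.

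The depth, worked out from the counts and FPKM of each library, was 36700000 to 56800000 reads on genes, rounded. A member had values in 2 groups of mice (36 members), 3 groups (37) or all 4 groups (14), according to the tables that listed it. Members that a table does not list have no value in it, which does not show that they were unchanged. Only polyadenylated RNA was captured, and no source used here states that reads were counted by strand. Reads of a lincRNA and of a gene it overlaps on the other strand therefore cannot be told apart. In 7 members the overlap with a coding gene is on the same strand, among them Gm20506 (with H2-Ob) and Gm37387 (with Ms4a4b). Part of the reads of these members may come from that gene.

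The 87 lincRNAs lay on all 19 autosomes, with most (11) on chromosome 5 and none on X or Y. Their lengths ran from 548 to 9720 bases, with a median of 2639 bases, against a median of 1440 bases for the lincRNAs that were listed but fell under the count minimum. Of the 85 that GENCODE release M21 holds under the same identifier, 15 (17.6%) had 1 exon in every transcript, compared with 5.42% of the 5854 lincRNA genes of that release. Most lay close to coding genes, since 20 overlapped one, 13 more lay within 1000 bases of one and only 7 lay over 50000 bases away. AI480526 overlaps the members Gm38102 and 4932422M17Rik on the opposite strand, so these 3 neighbours are not separate measurements. A search of the members' transcripts against all others found 1 member, Gm42047, with a stretch of at least 300 bases at 98% identity or more in genes elsewhere. Its longest such stretch covered 3209 bases of Gm48362 on another chromosome, and it also lies inside the long read-through gene Gm20388, so its counts are uncertain.

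Their levels spanned a wide range. Malat1, which is retained in nuclear speckles, was by far the most abundant, at a mean of 355 FPKM over its libraries, 6.12 times the next member, AU020206. Behind these came AW112010, Gm26532, AI504432, Gm20506, 4833407H14Rik, Gm15675, 5031425E22Rik and Snhg6, and 10 members in all exceeded 10 FPKM. The median member had 2.82 FPKM, 67 members were under 5 FPKM and 38 under 2 FPKM.

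The comparison of HFD with chow in WT mice asks what the diet does where Tet2 is intact, and it listed the most members, 69 of the 87. On HFD 55 of them were lower and 14 higher, with a median log2 fold change of -0.77, against -0.32 over all 7330 genes listed, of which 52.7% were lower. By edgeR's quasi-likelihood test 59 members were called at an unadjusted p under 0.05, beside 91.6% of all genes listed, and 21 at an adjusted p under 0.05, beside 18.7%, and in 60 members the 3 HFD libraries lay wholly above or below the 3 chow libraries, beside 86.5% of all genes listed. Because the same contrast chose the members, nothing is read from those calls.

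Malat1 was measured at 467, 378 and 405 FPKM in the WT chow libraries and at 250, 300 and 248 FPKM in the WT HFD libraries. Every HFD library was below every chow library, a log2 difference of -0.64 ± 0.15 (SE, n = 3 per group). In TET2 KO HFD libraries Malat1 was at 381, 393 and 373 FPKM, above all WT HFD libraries and within the range of the WT chow libraries at 2 of 3 values. A list of 24 paraspeckle and speckle proteins, which holds more than the proteins of speckles, had 9 genes listed in the WT diet comparison. Of these 8 were lower and all 8 called at an unadjusted p, beside 91.6% of all genes listed. Among the lower were Sfpq (-0.60 ± 0.12) and Srrm2 (-0.47 ± 0.12), and Nono was higher (0.21 ± 0.10). The other nuclear-body RNA on the list, Neat1, was not listed in any comparison. The RefSeq promoter of Malat1 (chr19:5802623-5802922 of GRCm38.p6, minus strand, 250 bases before the start of transcription to 50 after it) is shown beside that of Lncpint (chr6:31218425-31218724, minus strand), because both transcripts were lower on HFD and TET2 acts on CpG, and the capitals mark the CpG dinucleotides.
Malat1 promoter: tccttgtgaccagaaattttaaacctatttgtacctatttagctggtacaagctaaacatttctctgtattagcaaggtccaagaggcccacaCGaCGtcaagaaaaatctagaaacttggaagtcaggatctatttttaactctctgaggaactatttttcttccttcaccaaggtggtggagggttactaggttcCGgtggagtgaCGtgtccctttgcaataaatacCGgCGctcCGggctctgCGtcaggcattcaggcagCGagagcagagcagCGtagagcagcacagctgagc
Lncpint promoter: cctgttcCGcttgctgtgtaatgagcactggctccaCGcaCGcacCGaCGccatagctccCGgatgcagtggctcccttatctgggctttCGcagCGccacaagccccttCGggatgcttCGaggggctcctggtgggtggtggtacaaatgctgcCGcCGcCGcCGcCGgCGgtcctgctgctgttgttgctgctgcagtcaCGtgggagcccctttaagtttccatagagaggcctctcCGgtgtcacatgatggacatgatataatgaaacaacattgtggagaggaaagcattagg
The Malat1 sequence holds 10 CpG and the Lncpint sequence 18, compared with a median of 7 over 32851 RefSeq promoters of 300 bases. The Lncpint window lies inside the annotated span of the gene (chr6:31082565-31220488), which has 16 transcripts in GENCODE. Whether the counted reads arose from that start is therefore not known. Only 42 of the 87 members (48.3%) had a RefSeq promoter, too few for a comparison of the members as a set, and no methylation was measured here.

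**Figure D1:**
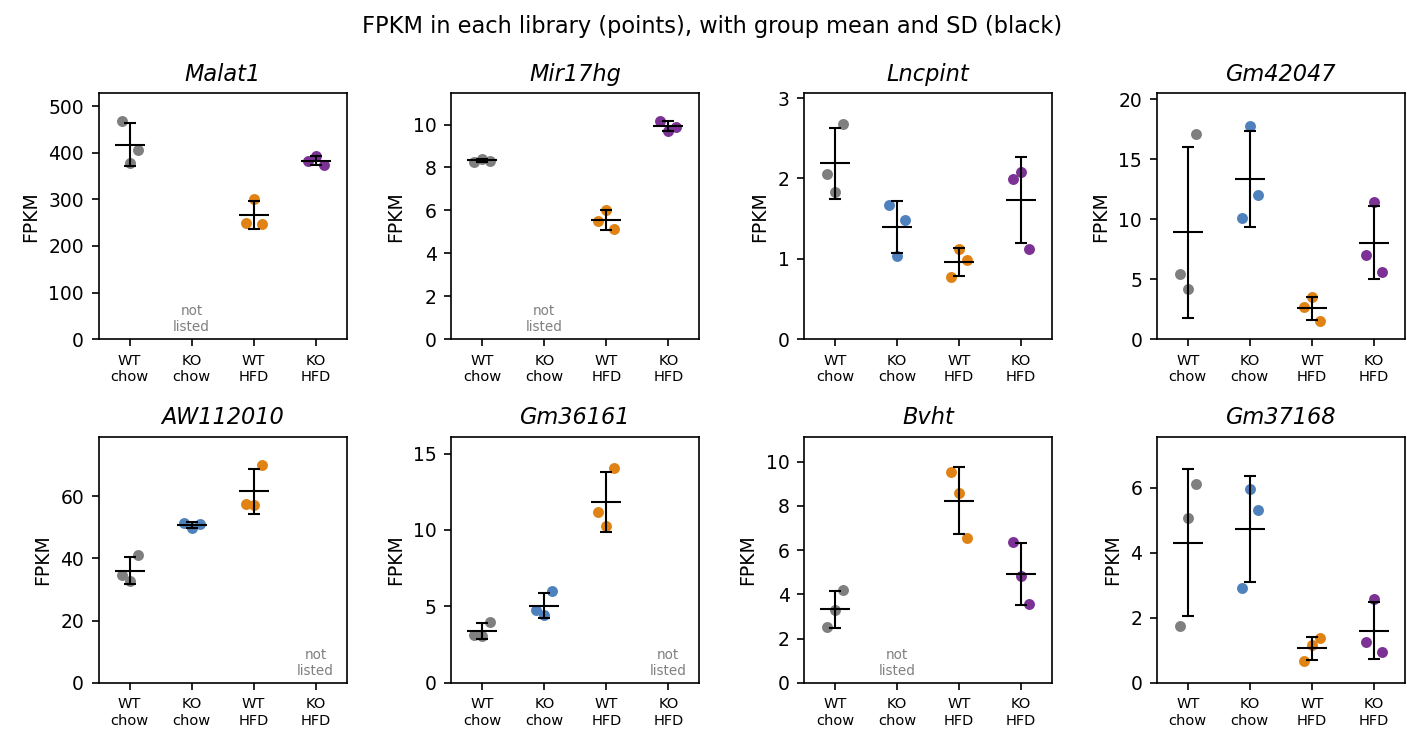
FPKM of 8 lincRNAs in each library (points) of WT chow, TET2 KO chow, WT HFD and TET2 KO HFD mice, with the mean and SD of 3 libraries in black; groups marked as not listed have no deposited value. Malat1 and Mir17hg were lower in all 3 WT HFD libraries than in the WT chow and TET2 KO HFD libraries, and AW112010 and Gm36161 were highest in WT HFD.

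Lncpint, a p53-responsive lincRNA known to restrain cell proliferation, was one of 6 members listed in 3 tables. It was at 2.05, 1.83 and 2.68 FPKM in WT chow, 0.77, 1.12 and 0.98 in WT HFD, 1.67, 1.04 and 1.49 in TET2 KO chow and 1.99, 2.08 and 1.12 in TET2 KO HFD. All WT chow libraries lay above all WT HFD and all TET2 KO chow libraries, whereas the third TET2 KO HFD library had the same level as the highest WT HFD library. The differences were -1.19 ± 0.21 (log2, SE) for HFD against chow in WT, -0.65 ± 0.24 for TET2 KO against WT on chow and 0.86 ± 0.27 for TET2 KO against WT on HFD.

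Mir17hg, the primary transcript of the miR-17-92 cluster (chr14:115042879-115046727, plus strand), had little spread between libraries. It was at 8.28, 8.41 and 8.32 FPKM in WT chow, 5.50, 6.04 and 5.14 in WT HFD and 10.2, 9.68 and 9.90 in TET2 KO HFD, so that the 3 groups did not overlap at all. HFD against chow in WT differed by -0.58 ± 0.11 (log2, SE) and TET2 KO against WT on HFD by 0.84 ± 0.13, from libraries that share the WT HFD group. The 6 microRNAs it carries are known regulators of cell growth and of angiogenesis. Their guide strands from RefSeq are shown because they form the cluster's product, with the seed (bases 2 to 8), which selects the targets, in capitals.
miR-17-5p: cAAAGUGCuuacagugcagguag
miR-20a-5p: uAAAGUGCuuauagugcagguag
miR-18a-5p: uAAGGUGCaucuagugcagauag
miR-19a-3p: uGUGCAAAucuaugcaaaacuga
miR-19b-3p: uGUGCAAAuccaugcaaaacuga
miR-92a-3p: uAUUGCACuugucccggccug
MiR-17-5p and miR-20a-5p share the seed AAAGUGC, and miR-19a-3p and miR-19b-3p share GUGCAAA, whereas miR-18a-5p (AAGGUGC) and miR-92a-3p (AUUGCAC) have seeds of their own. These small RNAs are not captured in a poly-A library, so only their host was measured. Another host, 6720427I07Rik, which carries let-7d (seed GAGGUAG), was at 1.57, 1.49 and 1.39 FPKM in WT HFD and 1.69, 1.92 and 2.72 FPKM in TET2 KO HFD. Its groups did not overlap.
let-7d-5p: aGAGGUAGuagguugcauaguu

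Other lincRNAs with a known role went both ways between the diets in WT mice. Pvt1, which lies next to Myc and is amplified with it in tumours, was at 1.08, 1.58 and 1.25 FPKM on chow and 0.75, 0.85 and 0.77 FPKM on HFD, a log2 difference of -0.71 ± 0.19, while Myc was higher on HFD by 0.80. In TET2 KO mice Pvt1 was again lower in all HFD libraries (0.62, 0.80 and 0.74 FPKM) than in all chow libraries (1.37, 1.07 and 0.93 FPKM). Bvht, known as Braveheart for its part in the commitment of cardiac cells, was at 2.51, 3.27 and 4.18 FPKM on chow and 9.52, 8.61 and 6.57 FPKM on HFD in WT mice, with no overlap and a log2 difference of 1.32 ± 0.26. In TET2 KO HFD it was at 6.38, 4.84 and 3.57 FPKM, below all 3 WT HFD libraries. Snhg6, a host of the small nucleolar RNA Snord87, had overlapping groups, at 10.5, 7.89 and 7.83 FPKM on chow and 12.4, 12.7 and 9.66 FPKM on HFD.

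The lists of other characterised non-coding genes were thinly covered. Of 19 small nucleolar RNA hosts 4 were listed in the WT diet comparison, all higher and 1 of them called, beside 91.6% of all genes listed. Of the 21 genes on the microRNA host list 3 were listed, all lower and called, beside the same 91.6%. Mir17hg and Lncpint of that list are members, but no annotated microRNA was found within Lncpint. Of 50 other characterised lncRNAs 4 were listed, 2 higher and 2 lower, and of 12 imprinted lncRNAs 2 were listed, 1 in each direction. In TET2 KO against WT on HFD these lists had 3, 2, 5 and 2 genes listed, with 2, 2, 3 and 1 higher. Fewer were listed in the other comparisons, with 1 snoRNA host and 2 characterised lncRNAs for HFD in TET2 KO mice. For TET2 KO on chow there were 1 gene of the microRNA host list (Lncpint) and 1 imprinted lncRNA.

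The largest decreases between the diets in WT mice were in lincRNAs with no known role. 1700072G22Rik had the largest, -2.44 ± 0.72 on the log2 scale, but its libraries varied widely, at 3.91, 17.1 and 17.4 FPKM on chow and 0.90, 1.98 and 4.23 FPKM on HFD, so that 1 HFD library exceeded 1 chow library. Gm15728 (-2.03 ± 0.37) was at 1.27, 3.15 and 2.53 FPKM on chow and 0.43, 0.57 and 0.71 on HFD. Gm37168 (-2.02 ± 0.50) was at 1.76, 5.06 and 6.11 FPKM on chow and 0.68, 1.15 and 1.37 on HFD. In both, every chow library exceeded every HFD library. Gm10605 differed by -1.81 ± 0.33 and Gm42047 by -1.79 ± 0.57, and the size of the latter depended on 1 chow library of 17.1 FPKM beside 5.45 and 4.22. Without 1 library at a time the Gm42047 difference ran from -2.13 to -0.90, and its groups did not overlap. Gm31812, which lies 932 bases from Stat4 on the other strand, was at 5.34, 4.56 and 8.11 FPKM on chow and 1.60, 2.10 and 1.83 FPKM on HFD, while the lower level of Stat4 itself differed by -0.57 on the log2 scale.

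The member with the largest increase on HFD in WT mice was Gm36161 (chr13:120010390-120018931, plus strand), at 3.11, 3.03 and 3.98 FPKM on chow and 11.1, 10.3 and 14.1 FPKM on HFD. The groups were far apart, with a log2 difference of 1.81 ± 0.19. In TET2 KO chow libraries it was at 4.77, 4.42 and 5.98 FPKM, again above every WT chow library. Its RefSeq promoter (chr13:120010092-120010391 of GRCm38.p6, plus strand) is shown because it held no CpG and because the study turns on interferon signalling, with the 10 letters that match the core of an interferon-stimulated response element (ISRE), repeated GAAA around any 2 bases, in capitals.
Gm36161 promoter: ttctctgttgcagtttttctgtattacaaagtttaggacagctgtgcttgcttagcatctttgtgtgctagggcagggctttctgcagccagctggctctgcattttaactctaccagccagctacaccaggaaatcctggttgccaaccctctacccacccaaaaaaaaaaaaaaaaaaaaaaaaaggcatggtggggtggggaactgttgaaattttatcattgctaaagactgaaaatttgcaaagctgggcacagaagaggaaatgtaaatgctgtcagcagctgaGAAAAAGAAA
On either strand the ISRE core occurs in 3.44% of the 32851 promoters. The match ends the window and describes the sequence only, since no factor's binding was measured. AW112010, a transcript known to be induced by inflammatory signals in immune cells, was at 34.5, 32.7 and 41.0 FPKM in WT chow, 57.6, 57.1 and 69.9 in WT HFD and 51.5, 49.8 and 50.9 in TET2 KO chow. Both of the latter groups lay wholly above WT chow, by 0.78 ± 0.14 and 0.49 ± 0.14 on the log2 scale. Gm38910 (1.55 ± 0.41), Gm5547 (0.93 ± 0.18) and Gm38399 (0.79 ± 0.22), which overlaps Nav1, were also higher on HFD in WT mice, with no overlap between the diets.

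**Figure D2:**
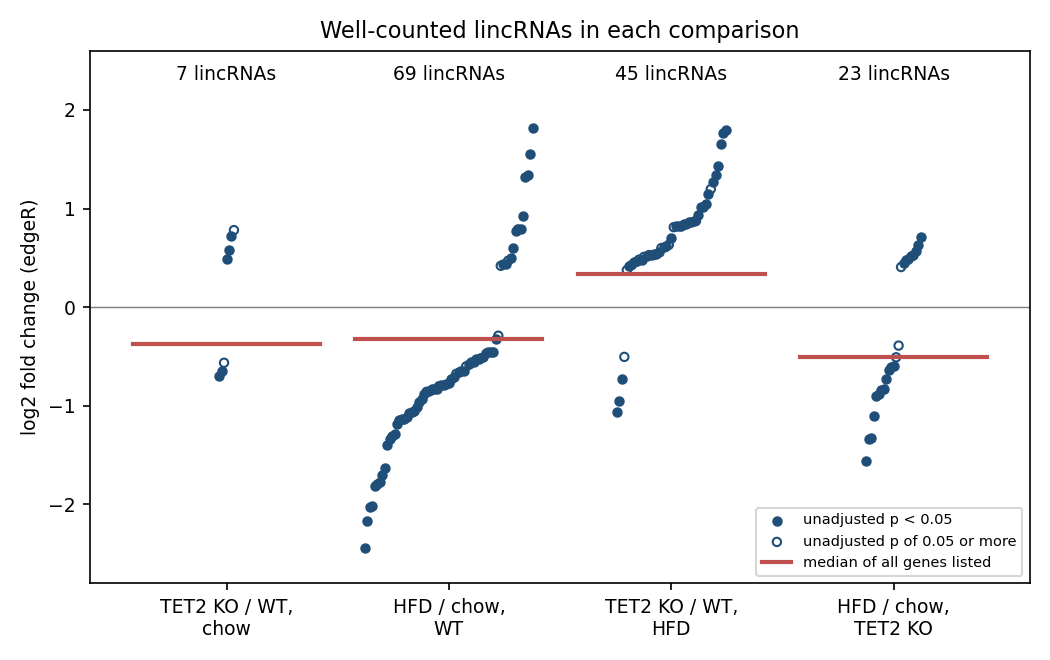
Log2 fold change (edgeR) of each well-counted lincRNA in the 4 comparisons; filled points have an unadjusted p under 0.05, open points do not, and the red bar is the median of all genes listed. Most of the 69 members listed for HFD against chow in WT mice lie below 0 and most of the 45 listed for TET2 KO against WT on HFD lie above it.

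The lower level on HFD was shared by other non-coding gene types and not by coding genes. Of the 273 lincRNAs listed below the count minimum 80.6% were lower, compared with 82.3% of 361 antisense genes, 90.2% of 61 sense intronic genes and 90.3% of 403 genes of the type TEC (transcripts that still await experimental proof), but 42.5% of 5491 protein-coding genes. Among genes with at least 100 counts the share lower was 79.1% for antisense, 89.2% for TEC and 36.3% for protein-coding genes, beside 80.6% of the 67 members with that mean count in the table. Each WT HFD library showed it, with medians over the 69 members of -0.66, -0.70 and -0.69 relative to the WT chow mean on the log2 scale and medians over the protein-coding genes of 0.34, 0.29 and 0.29. Cell markers moved in the same comparison. Of 20 endothelial markers 17 were listed, all higher on HFD, with a summed level of 334 to 909 FPKM on chow and 1051 to 1796 FPKM on HFD. Of 11 natural killer cell markers 10 were listed, all higher, at 37.6 to 65.6 FPKM on chow and 109 to 183 FPKM on HFD. Other lists went both ways or down. Of 8 monocyte and macrophage markers listed 5 were higher, among them Cx3cr1 (1.90 ± 0.18), and 3 were lower, namely Marco (-1.25 ± 0.28), Mrc1 (-1.05 ± 0.29) and Siglecf (-1.03 ± 0.30), which mark tissue macrophages. Of 7 lung epithelial markers listed 4 were higher and 3 lower, of 4 fibroblast and smooth muscle markers 3 were higher and 1 lower, and the 3 T cell markers listed were higher. The 1 neutrophil marker and the 2 mesothelial markers listed were lower. In bulk libraries fewer cells of a type and less RNA per cell cannot be told apart, and the part of these cells in the lincRNA levels was not tested. No listed marker was at 0 counts in any library.

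**Figure D3:**
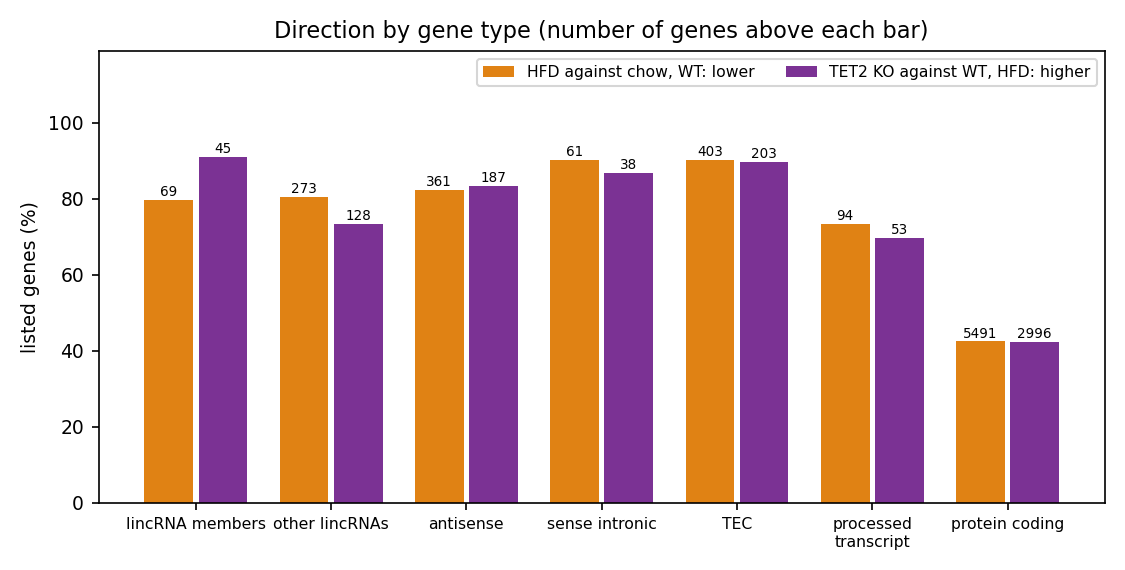
Share of the listed genes of each type that were lower on HFD than chow in WT mice (orange) and higher in TET2 KO than WT mice on HFD (purple), with the number of genes above each bar. The non-coding types were mostly lower in WT HFD, whereas protein-coding genes were lower in 42.5%. They were also mostly higher in TET2 KO HFD, compared with 1269 of 2996 protein-coding genes.

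The comparison of TET2 KO with WT on HFD asks what the loss of endothelial TET2 does under that diet, and it listed 45 members. Of these 41 were higher in TET2 KO and 4 were lower. Their median log2 fold change was 0.71, against 0.33 over all 3939 genes listed, of which 47.8% were lower. Other non-coding types went the same way, with 182 of 203 TEC, 156 of 187 antisense and 33 of 38 sense intronic genes higher. So were 94 of the 128 lincRNAs listed below the count minimum, but only 1269 of 2996 protein-coding genes. By edgeR at an unadjusted p under 0.05 34 members were called, beside 82.3% of all genes listed, and none at an adjusted p, beside 0% of them, and in 37 the groups did not overlap, beside 74.7%. Without the first WT HFD library, the deepest of the 12, 20 members were called, and the share of all genes listed in that fit is not given here. The medians over the members were 0.79, 0.80 and 0.49 in the TET2 KO HFD libraries relative to the WT HFD mean, so the third library stood lower than the others. Of the endothelial markers 16 were listed, all lower in TET2 KO HFD, at 578 to 1048 FPKM against 1125 to 1969 FPKM, and their part in the lincRNA levels was not tested. On the paraspeckle and speckle list 9 of 24 were listed, all higher and 6 called, beside the same 82.3%, with Sfpq at 0.68 ± 0.20 and Srrm2 at 0.57 ± 0.13.

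The members with the largest increases were again of unknown role. 1700072G22Rik (1.79 ± 0.77) was at 12.6, 9.89 and 1.82 FPKM in TET2 KO HFD, so the library of replicate 3 fell inside the WT HFD range, and without 1 library at a time its difference ran from 1.32 to 2.52. Gm31812 (1.76 ± 0.38) was at 9.99, 4.85 and 3.77 FPKM and Gm42047 (1.65 ± 0.36) at 7.03, 11.5 and 5.63 FPKM in TET2 KO HFD. In both, the groups did not overlap, with Gm42047 at 2.66, 3.49 and 1.56 FPKM in WT HFD. 4932422M17Rik differed by 1.27 ± 0.34, AI480526 on the other strand by 1.15 ± 0.20, and 9330104G04Rik by 1.20 ± 0.60 with overlapping groups. Gm43660 was among the tightest, at 0.63, 0.61 and 0.58 FPKM in WT HFD and 1.33, 1.16 and 1.20 FPKM in TET2 KO HFD. The 4 lower members were Gm38910 (-1.06 ± 0.30), D830026I12Rik (-0.95 ± 0.32), Bvht (-0.73 ± 0.27) and 4632415L05Rik (-0.50 ± 0.22), and only the last had overlapping groups.

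Set side by side, the comparisons that share the WT HFD libraries mirrored each other, as they must in part because a low value in those libraries lowers the first and raises the second. Of the 38 members listed in both, 34 were lower in WT HFD than WT chow and higher in TET2 KO HFD than WT HFD, and 4 (Gm38910, D830026I12Rik, Bvht and 4632415L05Rik) were the reverse. Of the 2947 genes of any type listed in both, 1537 and 1409 went these ways and 1 had the same direction in both. The mirroring is therefore not particular to the lincRNAs. TET2 KO HFD and WT chow share no library with each other. The TET2 KO HFD range overlapped the WT chow range in 32 of the 38 members (84.2%), and in 2730 of the 2947 genes of any type listed in both comparisons (92.6%). The median member was 0.08 lower on the log2 scale in TET2 KO HFD than WT chow (log2 ratio of means -0.08), while WT HFD stood at -0.84 to WT chow. Malat1 was at 417 ± 45.7 FPKM in WT chow, 266 ± 29.9 in WT HFD and 382 ± 9.73 in TET2 KO HFD (SD, n = 3 each). Mir17hg was 1 of the 6 without overlap, with every TET2 KO HFD library above every WT chow library.

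**Figure D4:**
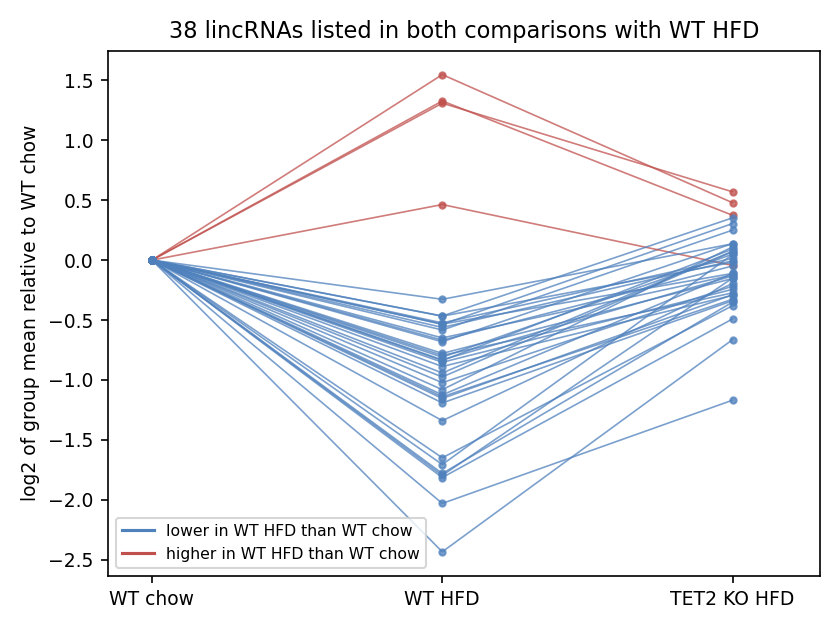
Log2 ratio of the group mean to the WT chow mean for the 38 lincRNAs listed in both comparisons that use WT HFD; each line joins WT chow, WT HFD and TET2 KO HFD for 1 lincRNA. The 34 blue lines fall in WT HFD and return towards 0 in TET2 KO HFD, with medians of -0.87 and -0.12, and the 4 red lines do the reverse, with medians of 1.32 and 0.43. Of the 2947 genes of any type listed in both comparisons, 1 had the same direction in both.

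HFD against chow in TET2 KO mice listed 23 members, 9 higher and 14 lower, with a median of -0.60 against -0.51 over all 1628 genes listed, of which 60.8% were lower. At an unadjusted p under 0.05 edgeR called 20 of them, beside 77% of all genes listed, and 0 at an adjusted p, beside 0.0614%, and in 18 the groups did not overlap, beside 72.6%. These calls depended on single libraries, as 5 members were called without the second TET2 KO chow library, 7 without the first TET2 KO HFD library, 9 without the first TET2 KO chow or the third TET2 KO HFD library and 11 without the third TET2 KO chow library. With TMM scaling the share of higher genes among all calls was 64.2% rather than 38.0% and the median over all genes moved from -0.51 to -0.26, and 12 members were called rather than 20, while the numbers of members that were higher and lower (9 and 14) did not move. Mesothelial markers (7 of 9 listed) were higher on HFD in 6, which summed to 3.84 to 7.09 FPKM on HFD and 0.83 to 1.55 FPKM on chow. The other, Krt19, stood at -0.85 ± 0.37 and held most of the list's level, so that all 7 summed to 44.8 to 90.3 FPKM on HFD and 61.3 to 133 FPKM on chow. Fibroblast and smooth muscle markers (6 of 14 listed, 5 higher) were at 18.2 to 44.8 and 37.3 to 92.4 FPKM in sum, T cell markers (5 of 17 listed, all lower) at 118 to 161 and 187 to 255 FPKM, and monocyte and macrophage markers (5 of 14, all lower) at 2018 to 3430 and 4002 to 5608 FPKM. Their part in the lincRNA levels was not tested.

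Gm37168 was the lowest of the 14, at 2.90, 5.97 and 5.33 FPKM in TET2 KO chow and 1.27, 2.59 and 0.94 FPKM in TET2 KO HFD, a log2 difference of -1.56 ± 0.43 without overlap. Gm12349 (-1.33 ± 0.31) was at 5.56, 8.45 and 4.35 FPKM on chow and 2.25, 2.86 and 2.20 FPKM on HFD, also without overlap. Gm39321 (-1.34 ± 0.54), AW121686 (-1.11 ± 0.43) and AU022793 (-0.90 ± 0.37) had overlapping groups. Among the higher members, Gm30211 (0.71 ± 0.29), whose annotated span (chr6:70719074-70740554) lies in the immunoglobulin kappa locus, was at 3.14, 2.69 and 3.58 FPKM on chow and 4.01, 3.92 and 7.46 FPKM on HFD. The 1 of 9 B cell markers that was listed was also higher, at 65.0 to 90.8 FPKM on HFD and 41.7 to 65.0 on chow. Snhg20, host of a small Cajal body RNA and of miR-6516, was at 3.23, 2.57 and 2.89 FPKM on chow and 3.39, 3.98 and 5.49 FPKM on HFD, a difference of 0.57 ± 0.23. AC130815.2 (0.53 ± 0.17) and Gm26669 (0.52 ± 0.22), which overlaps Zfp36l1, were also higher with no overlap.

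TET2 KO against WT on chow asks what the loss of TET2 does without the diet, and it listed 7 members, with 5 called by edgeR at an unadjusted p under 0.05, beside 76.6% of the 1298 genes listed, 0 at an adjusted p, beside 0%, and 5 without overlap, beside 74.7%. Without the third TET2 KO chow library 2 were called and without the second WT chow library 3, and the shares of all genes listed in those fits are not given here. The 4 higher members were Gm44175 (0.78 ± 0.37), Gm37387 (0.72 ± 0.24), Gm36161 (0.58 ± 0.21) and AW112010 (0.49 ± 0.14). Gm44175 lies 12598 bases from Cd8a, the co-receptor of cytotoxic T cells, and was at 0.60, 0.46 and 0.31 FPKM in WT and 1.05, 0.49 and 0.83 FPKM in TET2 KO, with overlap, while Cd8a was higher by 0.77 ± 0.22. Gm37387 overlaps Ms4a4b, a gene of T cells, on the same strand, so part of its reads may come from that gene. Its level was 2.92, 2.37 and 2.41 FPKM in WT and 3.06, 4.44 and 5.21 FPKM in TET2 KO, with no overlap between the groups. Of 17 T cell markers 12 were listed in this comparison, all higher in TET2 KO and 9 called, beside the same 76.6%, at 409 to 554 FPKM in sum against 249 to 395 FPKM. Natural killer cell (2 of 11 listed), monocyte and macrophage (2 of 14) and endothelial markers (2 of 20) were also all higher in TET2 KO. Lung epithelial (5 of 15 listed), fibroblast and smooth muscle (4 of 14) and mesothelial markers (5 of 9) were all lower in TET2 KO. The part of T cells or of any of these cells in the lincRNA levels was not tested. The 3 lower members were Gm26857 (-0.70 ± 0.23), which overlaps Lyn, Lncpint (-0.65 ± 0.24) and Gm45151 (-0.56 ± 0.25).

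The diet comparisons in WT and in TET2 KO mice share no library. Of the 11 members listed in both, 9 had the same direction (81.8%), beside 430 of 611 genes of any type (70.4%). Those 9, all lower on HFD, were AI504432, AU022793, AW121686, Gm12349, Gm37168, Gm39822, Gm42047, Gm48653 and Pvt1. AI504432, next to the potassium channel gene Kcna3, was at 31.9, 53.8 and 30.6 FPKM in WT chow, 24.5, 18.7 and 24.8 in WT HFD, 40.5, 35.0 and 32.3 in TET2 KO chow and 18.5, 33.1 and 19.6 in TET2 KO HFD. Its diets were apart in WT mice and overlapped in TET2 KO mice. Gm26767 and 1700056N10Rik went opposite ways. Gm26767 was at 1.70, 1.75 and 1.39 FPKM in WT chow, 1.28, 1.15 and 1.08 in WT HFD, 1.31, 1.5 and 1.59 in TET2 KO chow and 2.01, 1.94 and 2.23 in TET2 KO HFD. 1700056N10Rik was at 3.13, 2.95 and 2.58, at 2.08, 1.87 and 2.03, at 2.58, 1.81 and 2.54 and at 3.45, 4.05 and 3.20 FPKM in the same order. In both, HFD was lower than chow in all WT libraries and higher in all TET2 KO libraries. The genotype comparisons on chow and on HFD share no library either, and the 3 members listed in both (Gm26857, Lncpint and Gm45151) were lower in TET2 KO on chow and higher on HFD. Opposite directions on the 2 diets, whichever was the higher, were found in nearly all genes, since 4 of 461 (0.868%) had the same direction in both.

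Averages over the other factor gave tests that the rule had not used as contrasts, although the spread of the same libraries entered both. TET2 KO against WT, averaged over the diets in a fit of all 12 libraries, was tested for the 611 genes listed in both diet comparisons. None of the 11 members among them passed an adjusted p of 0.05 (edgeR, Benjamini-Hochberg over the 611), beside 0% of the 611, and DESeq2 called 0 of them. At an unadjusted p under 0.05 there were 2 members, beside 2.45% of all 611. Gm42047 was higher in TET2 KO by 1.11 ± 0.35 on the log2 scale (edgeR adjusted p = 0.991), which held its sign without any single library (0.94 to 1.55), and its counts are uncertain because of the copies named above. Gm26767 was higher by 0.34 ± 0.13 (edgeR adjusted p = 0.991). Pvt1 stood at -0.17 ± 0.15 and 1700056N10Rik at 0.26 ± 0.17.

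HFD against chow, averaged over the genotypes, was tested for the 461 genes listed in both genotype comparisons, and none of the 3 members passed, beside 14.1% of the 461 by edgeR at an adjusted p under 0.05. DESeq2 called 0 of the 3. Lncpint was lower on HFD by a log2 difference of -0.44 ± 0.20 (edgeR adjusted p = 0.137), Gm45151 stood at -0.30 ± 0.18 (adjusted p = 0.254) and Gm26857 at -0.11 ± 0.19 (adjusted p = 0.686, edgeR). An unadjusted p under 0.05 was reached by 1 of the 3, beside 34.5% of the 461.

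Nearest coding genes mostly went the same way as the lincRNA where both were listed. For HFD against chow in WT mice this held for 24 of 27 members (88.9%), compared with 1258 of 1720 pairs of neighbouring coding genes (73.1%), and for TET2 KO against WT on HFD for 10 of 10, compared with 455 of 604 coding pairs (75.3%). These pairs are not all separate, since the overlapping members AI480526 and 4932422M17Rik have the same neighbour, Setd1b. Gm38399, Gm48604, Gm16973 and Gm10605 overlap the neighbour they went with (Nav1, Hinfp, Mphosph8 and Tpbgl), so part of those reads may be shared. Gm38910 and Mansc1, 1526 bases apart, were close in size, at 1.55 and 1.55 for the diets in WT and -1.06 and -1.16 for the genotypes on HFD. D830026I12Rik and Cav2, a caveolin of endothelial membranes 71033 bases away, were at 1.34 and 1.22 and at -0.95 and -0.98. The 3 members that went against their neighbour in the WT diet comparison were Pvt1 with Myc, Gm37168 with Nenf and Snhg6 with Mcmdc2. Snhg6 and Mcmdc2 overlap on opposite strands, so part of their reads may be shared, although their differences had opposite signs (0.42 and -0.74).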

How the data were processed

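Libraries of CD31+ lung cells covered 12 mice in 4 groups. Per the labels and the methods of the study, the authors purified poly-A RNA, sequenced it in pairs, aligned reads with HISAT2 (genome build mm10), counted them with featureCounts and compared groups with DESeq2. Annotation release and strand setting are not given in the sources used here. The 4 tables deposited by the authors hold whole-number counts, counts divided by size factors (a normalized signal), FPKM and, for their own comparison, a log2 fold change, a p-value and an adjusted p-value. The log2 fold changes were not used, and the p-values served only to recover how many genes were adjusted over (18463, 23768, 18703 and 19511 in the order TET2 KO on chow, HFD in WT, TET2 KO on HFD and HFD in TET2 KO).

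Counts were tested in edgeR 4.0.16 (quasi-likelihood, limma 3.58.1, R 4.3.3) over all genes of a table with the size factors of the authors, and adjusted by Benjamini-Hochberg over the recovered number, unlisted genes being taken as not passing. The averaged contrasts used 1 fit of 12 libraries, adjusted over the genes fitted. The fits of HFD against chow in WT and of the genotype average were tried on simulated data, and the other fits were not. A difference ± SE is from edgeR, and FPKM are the deposited values. Coordinates are from the tables (mm10) and sequences from RefSeq (GRCm38.p6). Copies were searched with BLAST 2.17.0 in GENCODE M21. Alternatives were other scalings, DESeq2 1.42.0, a minimum of 10 counts, each library left out, count minimums of 50 and 200, adjusted p and a replicate block. Exact permutation tests of 3 against 3 libraries cannot go below p = 0.1 and were not used.

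The members and gene lists were chosen with earlier results of these data known. Named members are the 5 highest and 5 lowest of each comparison among those with at least 100 counts in it, the 10 most abundant, those in 3 tables, those in both tables of a pair without shared libraries, and the known lincRNAs. 6720427I07Rik, Gm43660 and AI480526, and Gm31812 and Gm42047 where outside those ranks, were named after their values were seen. Replicate numbers were not taken to pair mice in the main fits, since no label states a pairing. Deviations of same-numbered libraries correlated between -0.13 and 0.21 over the comparisons, and those of differently numbered libraries between -0.42 and 0.36. With 3 libraries per group these correlations cannot decide whether mice were paired.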

Additional observations from a re-analysis of the deposited data

Results flagged for a closer look

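In 3 lincRNAs every library of one group moved one way and every library of the other the opposite way under the same contrast. The difference between the groups was not tested in any of them. For HFD against chow, Gm26767 was at -0.46 on the log2 scale in WT mice and at 0.49 in TET2 KO mice, and 1700056N10Rik at -0.53 and 0.63. For TET2 KO against WT, Gm26857 was at -0.70 on chow and at 0.63 on HFD. Opposite directions, with overlap of libraries allowed, were found in 181 of the 611 genes of any type listed in both diet comparisons. In the genotype comparisons they were found in 457 of 461 genes, so Gm26857 shared its change of direction, in one order or the other, with nearly all genes there.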

How the results depend on the processing

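Of 1822 values of single lincRNAs under the alternatives, 1521 kept direction and side of the threshold, 224 kept direction but no longer passed, 62 newly passed and 15 reversed. The reversals were in the genotype difference averaged over the diets when 1 library was left out, with ranges of -0.18 to 0.13 for AI504432, -0.33 to 0.080 for AU022793, -0.30 to 0.054 for Gm12349, -0.064 to 0.15 for Gm39822 and -0.16 to 0.064 for Gm48653. In the order TET2 KO on chow, HFD in WT, TET2 KO on HFD and HFD in TET2 KO, the lincRNAs called were 5, 59, 34 and 20, and 0, 21, 0 and 0 at an adjusted p under 0.05. With 1 library left out they ran from 2 to 6, 45 to 57, 20 to 35 and 5 to 14. The shares of all genes listed in those fits are not given here, so these ranges cannot be called particular to the lincRNAs. A count minimum of 50 gave 10, 105, 54 and 30, a minimum of 200 gave 5, 31, 22 and 12, and DESeq2 gave 6, 68, 40 and 23. TMM factors gave 12 for HFD in TET2 KO. The cause was not tested, except that other minimums change the number of members. The averaged contrasts called 0 and 0, 2 and 1 at an unadjusted p, and the diet average called 1 at a minimum of 50. Leaving out any library gave 0 to 0. With the replicate block the 4 counts were 6, 51, 35 and 14, and the averaged contrasts gave 0 and 0. TMM factors moved the share of higher genes among the unadjusted calls of the genotype average from 73.3% to 62.5%. With 3 mice per group and tables limited to listed genes, changes in unlisted lincRNAs were not detectable here.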
